A study of Mus musculus with 4 samples.

Results

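Cholesterol synthesis, uptake and efflux was followed here through 29 genes, chosen by the gene name that the array files give to their non-control probes, out of 19955 named genes on the array. The 29 comprise 19 enzymes of synthesis, 4 genes that control the transcription factor SREBP2 or encode it, 3 genes of uptake and intracellular transport, and 3 genes of efflux and esterification. All 29 had at least 1 probe, 57 probes in all, and 28 had a probe with a usable value on all 4 arrays. The only probe of Npc2 was marked by the scanner software on the cyanidin array and is described apart.

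The cells were 3T3-L1, a mouse preadipocyte line that turns into adipocytes when induced with insulin, dexamethasone and IBMX. All 4 groups were induced in this way, with additives present from day 0, and RNA was taken on day 2 per the sample titles and the study's methods, although the labels call the cells adipocytes and give a treatment course of 6 days. The groups were the vehicle DMSO, bilberry extract at 100 µg/mL, delphinidin at 100 nM and cyanidin at 100 nM, and per the study's methods all media held 0.1% DMSO. Each group had 1 array and so 1 culture of 1 line, with no replicate anywhere, so no difference below carries a test or a measure of the spread between cultures. Delphinidin and cyanidin are anthocyanidins, plant pigments of the kind found in bilberry, and delphinidin carries an additional hydroxyl group on its B ring.

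Cells make cholesterol from acetyl-CoA, first through the mevalonate steps, which end in farnesyl diphosphate and also feed other isoprenoids, and then through squalene, lanosterol and a series of sterol intermediates. When membrane sterol falls, SCAP carries SREBP2 out of the endoplasmic reticulum for cleavage and the released fragment switches on the enzymes of the pathway, while INSIG proteins hold the complex back when sterol is plentiful. Excess cholesterol leaves through ABC transporters that are targets of the oxysterol-sensing LXR receptors, or is stored as esters, and the adipocyte is a large store of free cholesterol.

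Values are levels, the log2 of a spot's background-corrected intensity over the 75th percentile of its own array, or log2 ratios, the difference between levels of a probe on 2 arrays. A gene was read through its brightest probe, and levels of different probes were not set against each other. The error given with a ratio is the scanner software's own error of both spots and covers the spot only. It was 0.20 or 0.21 for the brightest probe of every measured member in each comparison of 2 arrays, from faint to bright. It thus acts as a nearly fixed cutoff and not as a spread seen for that spot. Replicate spots varied less, with a median SD between 0.034 and 0.0394. A gene was counted as higher or lower where its linear ratio was over 2 or under 1/2. All 28 measured members were well above background on all 4 arrays, so they are set mainly against the 12053 genes of which the same is true, whose median log2 ratio to DMSO was 0.17, -0.01 and 0.02 with bilberry, delphinidin and cyanidin. Over all 19410 genes with a value these medians were 0.34, -0.11 and -0.09. Scaling by the 10 spike-in controls in place of the 75th percentile lowers every bilberry ratio by 1.53 and raises those of delphinidin and cyanidin by 0.26 and 0.24, so every positive bilberry value below turns negative under it, and only the position of a gene among other genes is free of that choice. The 75th percentile itself was 576.1 intensity units on the bilberry array and between 860.9 and 1016 on the others. Markers of adipocytes (8 of 8) and of preadipocytes (6 of 6) were well above background on all 4 arrays, whereas 3 of 5 macrophage, 3 of 4 endothelial and 2 of 4 epithelial markers were so on no array. The summed level of the 8 adipocyte markers lay at -0.53, 0.13 and 0.24 against DMSO with bilberry, delphinidin and cyanidin, and that of the 6 preadipocyte markers at 0.01, -0.07 and -0.29. The adipocyte sum is weighted to bright spots such as that of Fabp4, at -0.95 with bilberry, and the median of the 8 ratios was 0.09, 0.25 and 0.37, with 5 of 8 above 0 with bilberry under the scaling used. Among these 8, Adipoq was over 2-fold lower with bilberry at -1.07, and Cfd over 2-fold higher with delphinidin at 1.15 and with cyanidin at 1.75. Of the 6 preadipocyte markers, Thy1 was over 2-fold lower with bilberry at -1.20. Of the markers of other cell types well above background on all 4 arrays, Krt8 was 2.24-fold, 3.49-fold and 2.09-fold higher, the first of these not under spike-in scaling, Csf1r was at 1.16, 0.26 and 0.53 and Lyzs at -0.16, -0.04 and -0.10. The part of cell state or of other cells in the values of the sterol genes was not tested. All 3 comparisons with DMSO share the 1 DMSO array, so their values are given side by side.

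Promoters were looked up for the 4 genes of synthesis that passed 2-fold with bilberry and for Hmgcs1, whose promoter alone among the 23 members in the promoter table held the sterol element searched. The 150 bases before the most upstream start that RefSeq gives are printed 5′ to 3′ on the gene's strand. Capitals mark the NF-Y box CCAAT, read as ATTGG where it lies on the other strand, and the sterol regulatory element TCACNCCAC.
Acat2: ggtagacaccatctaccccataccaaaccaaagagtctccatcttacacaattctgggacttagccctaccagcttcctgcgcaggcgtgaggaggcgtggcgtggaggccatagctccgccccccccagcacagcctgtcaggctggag
Lbr: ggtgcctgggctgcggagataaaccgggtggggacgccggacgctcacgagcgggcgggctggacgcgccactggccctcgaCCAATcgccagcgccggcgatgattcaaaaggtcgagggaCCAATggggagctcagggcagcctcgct
Tm7sf2: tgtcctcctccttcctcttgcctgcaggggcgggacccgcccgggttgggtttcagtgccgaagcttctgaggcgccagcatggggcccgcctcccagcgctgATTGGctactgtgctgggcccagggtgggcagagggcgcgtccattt
Dhcr7: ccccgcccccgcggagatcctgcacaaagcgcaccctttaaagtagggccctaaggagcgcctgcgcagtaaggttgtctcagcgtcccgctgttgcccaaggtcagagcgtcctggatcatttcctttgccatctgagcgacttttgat
Hmgcs1: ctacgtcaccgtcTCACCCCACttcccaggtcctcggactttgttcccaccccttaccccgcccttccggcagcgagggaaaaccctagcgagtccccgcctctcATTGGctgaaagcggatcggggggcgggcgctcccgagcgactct

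On GRCm38.p6 these are chr17:12960726-12960875 on the minus strand for Acat2, chr1:181842402-181842551 on the minus strand for Lbr, chr19:6067851-6068000 on the minus strand for Tm7sf2, chr7:143823017-143823166 on the plus strand for Dhcr7 and chr13:119690201-119690350 on the plus strand for Hmgcs1. Counted from the start, the sterol element of Hmgcs1 begins at -137 and its CCAAT box in the printed stretch at -45. Lbr has CCAAT at -68 and -28 and Tm7sf2 at -47. Dhcr7 has the box only before a later start, at -85 and -49. Of the 29 members, 23 were in the promoter table, and Fdps, Fdft1, Sqle, Stard4, Npc1 and Abcg1 were not. In the window from 250 bases before to 50 after the start, on either strand, CCAAT was present for 20 of these 23 genes, or 87.0%, against 41.1% of 27025 genes in the table. The sterol element was present for 1 of 23, or 4.35%, against 1.44% of all genes. The LXR element known as DR4, spelled as AGGTCA repeated after a gap of 4 bases, was in none of the 23 windows and in 0.0148% of all genes. No match of 1 motif overlapped a match of another among the members. A match is a description of letters, and the absence of one says only that these letters are not in this window.

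**Figure D1:**
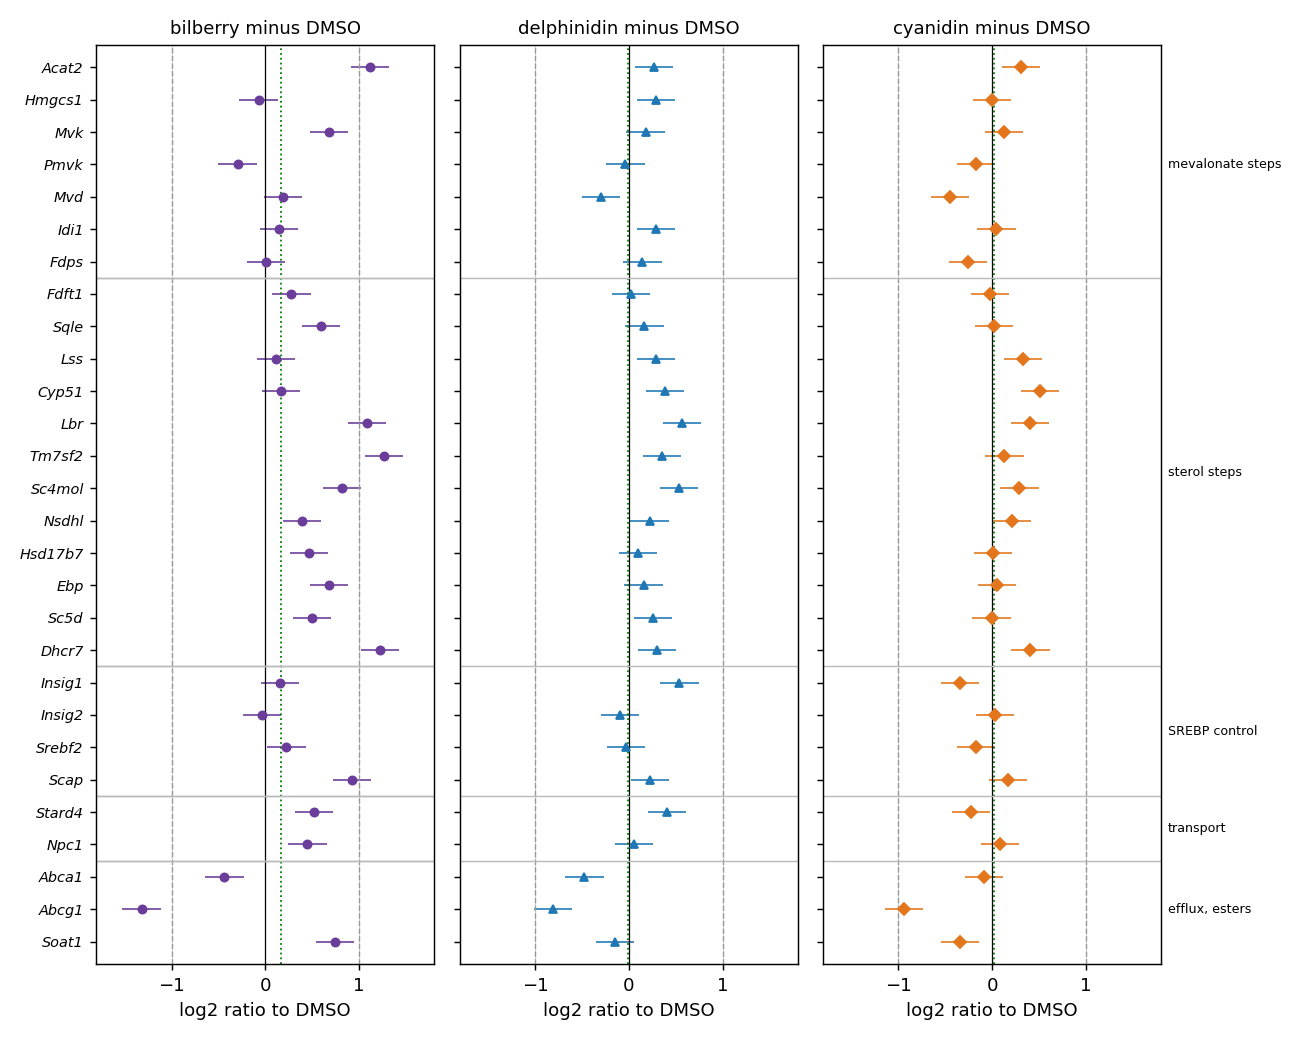
Log2 ratio to the DMSO array of the 28 measured members (rows, in order of the pathway) with bilberry, delphinidin and cyanidin (panels). Bars are ± 1 scanner error of both spots, the dashed lines mark 2-fold and the dotted line the median of genes well above background on all 4 arrays. Acat2, Lbr, Tm7sf2 and Dhcr7 lie beyond 2-fold on the higher side with bilberry and Abcg1 on the lower, and no member lies beyond it with delphinidin or cyanidin; spike-in scaling shifts the whole bilberry panel down by 1.53.

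With bilberry, 4 of 28 members, or 14.3%, were over 2-fold higher than on DMSO, namely Acat2, Lbr, Tm7sf2 and Dhcr7. The same call was made for 6.55% of all genes and 3.96% of genes well above background on all 4 arrays. In the other direction 1 member, Abcg1, or 3.57%, was over 2-fold lower, against 7.16% of all genes and 6.4% of those well above background. The 4 higher members are all enzymes of synthesis and the lower one is an efflux transporter. Under quantile normalization 3 of the 4 stayed past 2-fold and Lbr came just short of it. Under spike-in scaling none of the 4 is higher, and 18 of 28 members are over 2-fold lower, as are 63.3% of all genes and 77.7% of genes well above background.

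The mevalonate steps did not stand apart from other genes as a group with bilberry. The median log2 ratio of the 7 genes was 0.15, which is 0.02 below the median of genes well above background, and 3 of the 7 lay above that median. Relative to such genes the 7 lay at 0.19 with delphinidin, with 5 above their median, and at -0.02 with cyanidin, with 3 above. Acat2, the cytosolic thiolase that joins acetyl-CoA units, had levels of -0.01 on DMSO, 1.11 on bilberry, 0.26 on delphinidin and 0.30 on cyanidin. The bilberry array was high and the other 3 lay close together. Its bilberry ratio was 1.12 ± 0.20, or 2.17-fold, from 1 probe at chr17:12786563-12786622 of mm8, the build of the array files. Mvk, the kinase that phosphorylates mevalonate, was next at 0.68, and its other probe lay close to that value. Pmvk, the kinase of the step after it, was at -0.30.

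Hmgcs1, which makes HMG-CoA, had levels of 4.53, 4.46, 4.82 and 4.53 on DMSO, bilberry, delphinidin and cyanidin. By this probe the delphinidin array was the highest, by 0.29 over DMSO. Of its other probes, 1 gave -0.95, 0.05 and -0.54 with bilberry, delphinidin and cyanidin, so delphinidin was only just its highest array. The other gave 0.21, -0.26 and -0.33, with bilberry the highest. Mvd, the decarboxylase that makes isopentenyl diphosphate, was at 0.19, -0.30 and -0.45 with bilberry, delphinidin and cyanidin. Fdps, which makes farnesyl diphosphate, was at 0.01, 0.15 and -0.26 in the same order. Idi1, the isopentenyl diphosphate isomerase, was at 0.15, 0.29 and 0.05, through a probe that the files place on another chromosome than RefSeq places the gene. Its other probe gave -0.55, 0.29 and -0.34.

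The 12 genes of the sterol steps, from squalene synthase onward, lay higher. Their median log2 ratio was 0.54, 0.27 and 0.17 with bilberry, delphinidin and cyanidin. With bilberry 10 of 12 lay above the median of genes well above background, with delphinidin 12 of 12 and with cyanidin 9 of 12. Relative to that median the group lay at 0.38, 0.28 and 0.15 with bilberry, delphinidin and cyanidin. Over the reported setting and the 11 other settings run, these relative values kept their sign and ranged from 0.29 to 0.46, from 0.23 to 0.30 and from 0.11 to 0.18. Relative to the median of all genes, which takes in those near background, the group lay at 0.20, 0.38 and 0.27 instead, with bilberry the lowest of the 3, so the order of the treatments depends on the genes they are set against. Whether such a shift is larger than the difference between 2 cultures given the same medium was not tested.

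Lbr and Tm7sf2 are both sterol C14 reductases, and Lbr is also a receptor of the nuclear lamina. Lbr had levels of 1.30 on DMSO, 2.39 on bilberry, 1.87 on delphinidin and 1.70 on cyanidin. The DMSO array was the lowest and the bilberry array the highest. Its ratio was 1.09 ± 0.20 with bilberry, or 2.13-fold, and 0.57 and 0.40 with delphinidin and cyanidin, from a probe at chr1:183652437-183652496 of mm8. Tm7sf2 had levels of 1.08, 2.34, 1.43 and 1.21 in the same order of arrays. The bilberry array again stood well above the rest, which lay within a narrow range. Its ratio of 1.27 ± 0.20, or 2.41-fold, was the highest of any member with bilberry, from a probe at chr19:6062882-6062941.

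Dhcr7, the reductase that completes cholesterol from 7-dehydrocholesterol, had levels of 2.50 on DMSO, 3.72 on bilberry, 2.80 on delphinidin and 2.90 on cyanidin. Here too DMSO was lowest and bilberry highest. The bilberry ratio was 1.23 ± 0.20, or 2.34-fold, and the ratios of delphinidin and cyanidin were 0.30 and 0.41, through a probe at chr7:143657738-143657797 of mm8. Its other probe gave 0.92, 0.19 and 0.52, which puts it short of 2-fold with bilberry. Of the 4 members past 2-fold on the higher side it was the only one with more than 1 probe.

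By their brightest probes, the remaining sterol enzymes stayed under 2-fold. Sc4mol, now named Msmo1 and the oxidase of the C4 methyl groups, came closest with bilberry, with levels of 3.94 on DMSO, 4.75 on bilberry, 4.47 on delphinidin and 4.23 on cyanidin. Its order of arrays was that of Lbr, with ratios of 0.82, 0.54 and 0.29. Ebp, the sterol isomerase, was at 0.68, 0.16 and 0.05, and Sqle, the squalene epoxidase that acts just before ring closure, was at 0.59, 0.17 and 0.02. Sc5d, the C5 desaturase, was at 0.50, 0.26 and -0.01. In these 3 genes bilberry was the highest array and cyanidin lay close to DMSO. The other probe of Sc5d was at -0.32 with bilberry. Hsd17b7, the ketosteroid reductase of the C4 demethylation steps, was at 0.46 with bilberry and Nsdhl, the dehydrogenase of the same steps, at 0.39. Other usable probes of Nsdhl were at 0.56 and -0.01 with bilberry. Fdft1, the squalene synthase, was at 0.28, 0.03 and -0.02. Lss, which closes the ring to form lanosterol, and Cyp51, the lanosterol demethylase, were by their brightest probes lower with bilberry than with the anthocyanidins. Lss was at 0.11, 0.29 and 0.33 with bilberry, delphinidin and cyanidin. Its other probes were at 0.18 and -1.15 with bilberry, the latter over 2-fold lower. Cyp51 was at 0.17, 0.39 and 0.51, from levels of 0.75 on DMSO, 0.92 on bilberry, 1.14 on delphinidin and 1.26 on cyanidin. Of its other probes, 1 gave 0.01, 0.42 and 0.39 and the other 0.47, 0.42 and 0.40, so the lower bilberry value was not shared by all 3.

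**Figure D2:**
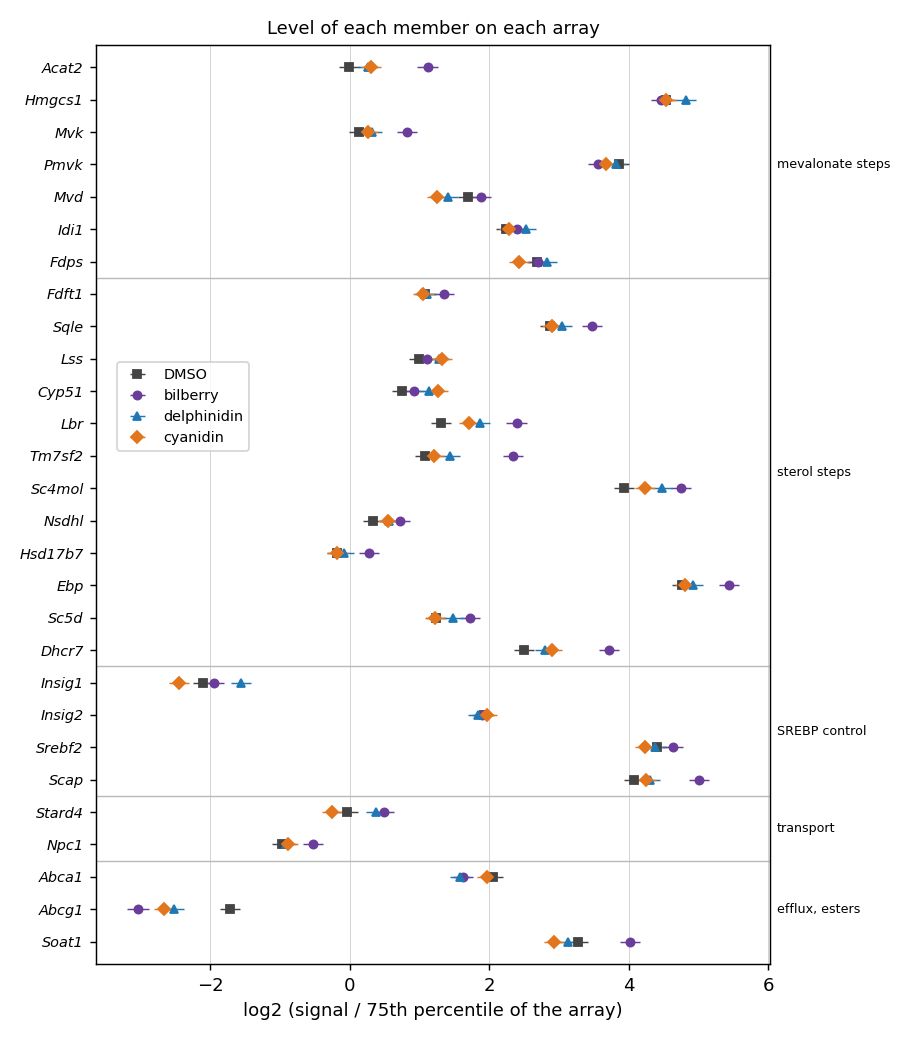
Level of each of the 28 measured members (rows) on each of the 4 arrays (symbols), as log2 of the signal over the 75th percentile of the array, with bars of ± 1 scanner error. The 4 points of a row can be compared with each other and rows cannot; the bilberry point is the highest in 18 rows, which spike-in scaling would undo by moving all bilberry points down, and Abcg1 is highest on DMSO with either scaling.

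Among the 28 members, the highest level was on the bilberry array in 18, on delphinidin in 4, on DMSO in 3 and on cyanidin in 3. Bilberry was also the highest array for 51.9% of genes well above background on all 4 arrays, so this order was a general feature of the arrays under the scaling used. The lowest level was on DMSO in 15 of 28 members, against 33.1% of genes well above background. Spike-in scaling puts bilberry below DMSO in all 28, so DMSO would then be the lowest array in 0.

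The genes around SREBP2 gave mixed values. Scap, the escort of SREBP2, had levels of 4.08 on DMSO, 5.00 on bilberry, 4.30 on delphinidin and 4.25 on cyanidin. Bilberry stood apart at a ratio of 0.93, short of 2-fold. Srebf2, which encodes SREBP2, was at 0.23, -0.03 and -0.17, and Insig2 was at -0.03, -0.09 and 0.03. Neither was far from the median of other genes. Insig1, itself a target of SREBP2 and a brake on it, had levels of -2.10, -1.95, -1.56 and -2.45 on DMSO, bilberry, delphinidin and cyanidin. Delphinidin was the highest array and cyanidin the lowest, with ratios of 0.54 ± 0.21 and -0.34 ± 0.21. Its other probe gave 0.76, 0.58 and 0.12 with bilberry, delphinidin and cyanidin, so the value below 0 with cyanidin was that of 1 probe.

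Of the transport genes, Stard4, a cytosolic sterol carrier, had levels of -0.03 on DMSO, 0.49 on bilberry, 0.38 on delphinidin and -0.26 on cyanidin. Bilberry and delphinidin lay above DMSO and cyanidin below it, although spike-in scaling brings cyanidin level with DMSO and bilberry below it. The bilberry ratio of 0.52 was that of 1 of 3 probes, the others being at 0.13 and -0.04, whereas all 3 were above 0 with delphinidin, from 0.13 to 0.41, and below 0 with cyanidin, from -0.35 to -0.23, under the scaling used. Npc1, which exports cholesterol from lysosomes, was at 0.45, 0.05 and 0.08. Npc2, its soluble partner in the lysosome, had levels of 5.46 on DMSO, 6.06 on bilberry and 5.54 on delphinidin, with ratios of 0.60 and 0.08. Its marked spot on the cyanidin array would give a level of 5.73 and a ratio of 0.27 if it were kept.

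The efflux transporters lay on the other side of 0. Abcg1, which passes cholesterol to high-density lipoprotein, had levels of -1.72 on DMSO, -3.04 on bilberry, -2.53 on delphinidin and -2.66 on cyanidin. All 3 treated arrays lay below DMSO by several times the scanner error. The ratios were -1.32 ± 0.21 with bilberry, a 2.5-fold lower signal, -0.81 ± 0.21 with delphinidin and -0.94 ± 0.21 with cyanidin, and only the first passed 2-fold. This rests on 1 probe, at chr17:30842647-30842706 of mm8. It sits in the middle rows of the array, a block that one alternative left out because earlier results of these data had placed more of the changed probes there. Of genes well above background on all 4 arrays, 6.64% in these rows and 6.21% elsewhere were over 2-fold lower with bilberry, 1.87% and 1.15% with delphinidin and 1.49% and 0.858% with cyanidin. The part of the array position in the Abcg1 values was not tested. With normexp background correction no member was over 2-fold lower with bilberry. Abca1, which passes cholesterol to apolipoprotein A-I, had levels of 2.05, 1.62, 1.58 and 1.97 on DMSO, bilberry, delphinidin and cyanidin. Bilberry and delphinidin were low, at -0.44 and -0.47, and cyanidin was at -0.09, close to DMSO. Soat1, the enzyme that esterifies cholesterol for storage, was at 0.75, -0.15 and -0.34 with bilberry, delphinidin and cyanidin, and its other probes gave 0.72 and -0.08 with bilberry.

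With delphinidin, 0 of 28 members were over 2-fold higher, where 2.93% of all genes and 1.22% of genes well above background were, and 0 were lower, where 4.32% and 1.47% were. With cyanidin, 0 of 28 were higher, against 2.4% of all genes and 0.622% of those well above background, and 0 were lower, against 4.46% and 1.14%. Counts of 0 in 28 against shares this small do not set the members apart. Below 2-fold, the 19 synthesis genes had a median of 0.26 with delphinidin and 0.05 with cyanidin, and 0.46 with bilberry. Relative to genes well above background these medians were 0.26, 0.03 and 0.30. Of the 19, 17 lay above that reference with delphinidin, 12 with cyanidin and 13 with bilberry. In the same order, the relative medians ranged over the settings run from 0.20 to 0.28, from -0.01 to 0.12 and from 0.15 to 0.37. Again only the settings named for the sterol steps could move them. The cyanidin sign did not hold. Delphinidin lay above bilberry under normexp, at 0.28 against 0.20, and with the mean over probes, at 0.20 against 0.15.

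**Figure D3:**
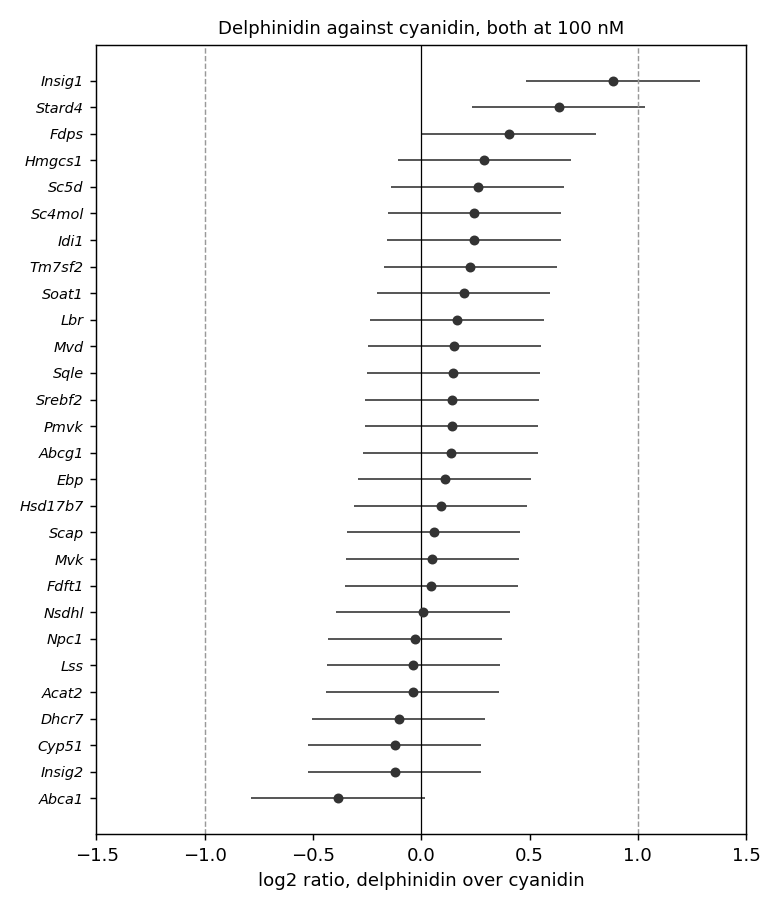
Log2 ratio of the delphinidin over the cyanidin array, both at 100 nM, for the 28 measured members in order of the ratio, with 95% intervals from the scanner error alone and dashed lines at 2-fold. Insig1, Stard4 and Fdps have intervals above 0, and the points of all 28 lie within 2-fold.

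Delphinidin and cyanidin were given at the same dose and time and could be compared for 28 genes, with 1 array each and so with values and no test. Of the 28, 0 were over 2-fold higher with delphinidin and 0 lower, where 3.47% and 2.99% of all genes were, and 0.382% and 0.348% of genes well above background on all 4 arrays. The ratios of delphinidin over cyanidin had a median of 0.14 and a range from -0.38 to 0.88, while the median of all genes was -0.02. Of the 28, 21 lay above 0, against 39.5% of all genes and 43.4% of genes well above background. Insig1 had the highest ratio, at 0.88 with a 95% interval of the scanner error from 0.48 to 1.29, and its other probe gave 0.46 with an interval from 0.05 to 0.86. Stard4 was at 0.63, with an interval from 0.23 to 1.03, and its other probes both gave 0.48, with intervals that also left out 0. Fdps was at 0.41, with an interval from 0.01 to 0.81. In these 3 genes delphinidin was the higher array. No share of all genes with such intervals is given here, so the 3 are not set against other genes. Abca1 was lowest by its brightest probe, at -0.38, with an interval from -0.78 to 0.02. By their brightest probes, the other 24 of the 28 genes also had intervals that included 0, such as that of Mvk from -0.35 to 0.45, which does not show that the compounds acted alike. Besides those of Insig1 and Stard4, 3 usable probes that were not the brightest of their gene had intervals that left out 0. A probe of Idi1 was at 0.62, with an interval from 0.22 to 1.03, and a probe of Hmgcs1 at 0.58, with an interval from 0.18 to 0.99, while the brightest probes of both genes were at 0.24 and 0.29. A probe of Srebf2 was at -1.41, with an interval from -1.85 to -0.98, against 0.14 for the brightest.

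Bilberry extract is a mixture dosed by mass. The study's methods give its total content of anthocyanidins but not that of each, so its dose of delphinidin or of cyanidin is not stated there. The extract was not matched to the pure compounds in dose. Side by side with the mean of the delphinidin and cyanidin arrays, 1 of 28 members was over 2-fold higher on the bilberry array, or 3.57%, against 20.5% of all genes and 2.57% of genes well above background on all 4 arrays. In the other direction 0 were lower, against 4.7% and 4.29%. That member was Tm7sf2, at 1.02 ± 0.18. It was under 2-fold with normexp background correction and with quantile normalization. Soat1 followed just under 2-fold at 0.99, and its other probes gave 0.53 and 0.24. The members as a whole had a median of 0.38 here, against 0.16 for genes well above background and 0.31 for all genes, with spike-in scaling lowering all 3 by 1.78.

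**Figure D4:**
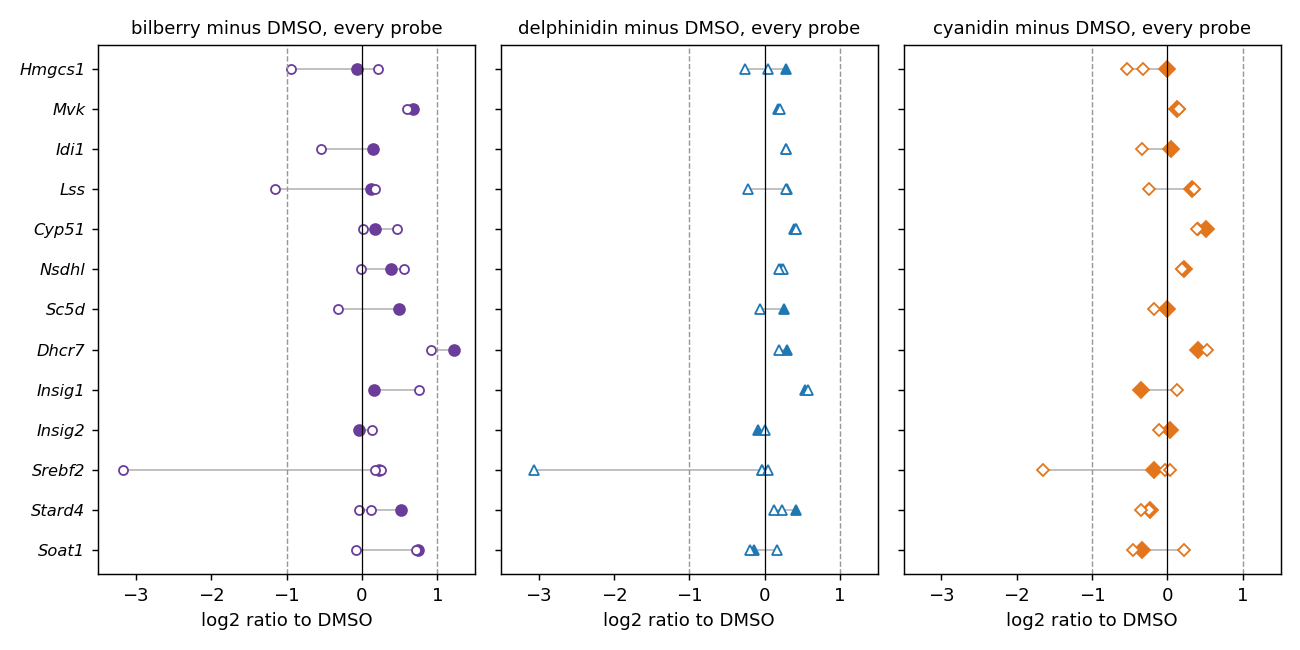
Log2 ratio to DMSO of each usable probe of the 13 members that had several, with bilberry, delphinidin and cyanidin (panels). Filled symbols are the brightest probe of a gene, open symbols the others, and dashed lines mark 2-fold; Srebf2, Lss and Hmgcs1 each have 1 probe far below their others with bilberry.

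Probes of 1 gene did not always give the same value. In the 13 members with several usable probes, the range between probes had a median of 0.61, 0.11 and 0.17 with bilberry, delphinidin and cyanidin. All probes of a gene had the same sign in 4 of 13 members with bilberry and in 7 of 13 with each anthocyanidin. The same order held beyond the members, with a median SD between probes of 0.209, 0.0916 and 0.131 over 5006 genes. Most of the wide ranges came from single probes. One of 4 Srebf2 probes, at chr15:82004698-82004757 of mm8, had levels of -1.66 on DMSO, -4.84 on bilberry, -4.73 on delphinidin and -3.31 on cyanidin. It was far below DMSO on every treated array, with ratios of -3.18 ± 0.28, -3.06 ± 0.22 and -1.65 ± 0.21, whereas the other 3 lay between 0.17 and 0.26 with bilberry and between -0.17 and 0.05 with the anthocyanidins. This probe was well above background on all 4 arrays and lies in the middle rows. A probe of Lss at chr10:76000484-76000543 was at -1.15 with bilberry, against 0.11 and 0.18 for its others. A probe of Hmgcs1 was at -0.95 with bilberry. What transcripts these probes detect was not tested.

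Beyond the 29 members, 28 other genes of sterol metabolism were read from a list written from general knowledge. With bilberry 1 was over 2-fold higher and 1 lower, with delphinidin 0 and 1, and with cyanidin 0 and 1. The 1 lower with delphinidin was not well above background on the delphinidin array, so its call carries no weight. Over all genes the shares higher and lower were 6.55% and 7.16% with bilberry, 2.93% and 4.32% with delphinidin, and 2.4% and 4.46% with cyanidin. The median log2 ratios of the list were 0.31, 0.06 and 0.06, and those of all genes 0.34, -0.11 and -0.09. Since 25 of the 28 were well above background on all 4 arrays, the closer medians are those of such genes, at 0.17, -0.01 and 0.02, and the closer shares higher and lower are 3.96% and 6.4% with bilberry, 1.22% and 1.47% with delphinidin, and 0.622% and 1.14% with cyanidin. Tmem97, a sterol-responsive membrane protein of the endoplasmic reticulum that binds Npc1, was 2.14-fold higher on the bilberry array than on DMSO, though not under spike-in scaling, and at 0.65 and 0.62 with delphinidin and cyanidin. Abcg4, a relative of Abcg1, was at -1.85, -0.53 and -0.11. Idi2, another isopentenyl diphosphate isomerase, was at -0.51, -0.65 and -1.23. The probes of these 3 genes, which are the ones past 2-fold with signal well above background on both arrays compared, all lie in the middle rows.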

How the data were processed

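RNA from each of the 4 groups was labelled with 1 dye and hybridised to 1 Agilent whole mouse genome array. The authors deposited the output of Agilent Feature Extraction, version 9.5.1.1 per the file headers, and the processed signal used is an intensity with local background and spatial trend already removed. Their scaling by the 75th percentile is not in the deposited intensity values and was applied here over 43379 non-control spots per array, before log2. A deposited table of the series holds the same intensity. Spots marked for uneven or outlying signal or background were left out. A gene was its probe with the highest mean level among those with a value on all 4 arrays. Named were every member and, of 28 further sterol genes, those past 2-fold in at least 1 comparison with DMSO with signal well above background on both arrays. The members and lists were chosen with earlier results of these data known. Coordinates are those of the files (mm8), and promoters are those of RefSeq on GRCm38.p6.

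No test across samples was possible with 1 array per group, and precision is limited by having 4 arrays in all. Replicate spots of 245 probes had a median SD between 0.034 and 0.0394 on the log2 scale. Scanner errors were carried to log2 ratios. Python 3.11.15 with numpy 2.4.6 and pandas 2.3.3 was used, and R 4.3.3 with limma 3.58.1 for normexp (offset 50) and quantile normalization. The calls were tested on simulated data. The other alternatives were thresholds of 1.5 and 3, probes in place of genes, 2 detection filters, 3 scalings, the deposited table, marked spots kept, the mean over probes and the middle rows left out.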

Additional observations from a re-analysis of the deposited data

How the results depend on the processing

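No paired analysis was possible because each group has 1 array. Shares in brackets are of genes well above background and then of all genes. With bilberry, the 4 members over 2-fold higher became 10 at 1.5-fold (18.6% and 18.2%) and 0 at 3-fold (0.572% and 2.32%). They became 3 under quantile normalization (3.67% and 6.2%) and 0 under spike-in scaling (0.083% and 0.752%). The 1 lower became 0 at 3-fold (2.15% and 3.07%), 4 when 51 probes were counted in place of genes and 0 under normexp background correction (3.61% and 2.39%). It became 18 under spike-in scaling (77.7% and 63.3%). It became 0 when the middle rows, and with them the probe of Abcg1, were left out (6.45% and 6.15%), which left 21 members. Of the 4 probes, 1 of Insig2, at -1.06 ± 1.52, was well above background on no array, so its call carries no weight. With delphinidin the 0 lower became 1 at 1.5-fold (5.33% and 9.22%) and 2 over probes, and with cyanidin 1 at 1.5-fold (4.75% and 9.34%) and 1 over probes. The same Insig2 probe, at -1.79 ± 1.25, was 1 of the 2 with delphinidin. For delphinidin over cyanidin the 0 higher became 2 at 1.5-fold (1.42% and 6.35%) and the 0 lower became 2 over probes. Again 1 of these 2 was that Insig2 probe, at -1.18 ± 1.28. For bilberry against the mean of both, the 1 higher became 6 at 1.5-fold (12.5% and 33.0%), 0 at 3-fold (0.49% and 2.62%) and 2 over probes. It became 0 under normexp (1.25% and 1.52%), 0 under quantile normalization (1.9% and 4.39%), 0 under spike-in scaling (0.0415% and 0.747%) and 2 without the middle rows (2.34% and 21.6%). The 0 lower became 24 under spike-in scaling (11446 of 12053 genes well above background, 74.1% of all genes). Of the 2 over probes, 1 was a probe of Npc1, at 1.05 ± 1.76, that was well above background on no array. No share of all probes is given here, so the counts over probes are not set against the array at large.

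Relative to the median of all genes, the median of the 19 synthesis genes was 0.12 with bilberry, and 0.36 under quantile normalization, 0.30 and 0.31 under the detection filters (well above background on all 4 or on at least 1), -0.01 under normexp and -0.03 with the mean over probes, so its sign did not hold. With delphinidin it was 0.37, and 0.23 under quantile normalization and 0.26 and 0.27 under the detection filters. With cyanidin it was 0.15, and 0.02 under quantile normalization and 0.03 and 0.04 under the filters. Against the mean of both compounds the bilberry value was 0.09, and -0.12 under normexp, 0.27 under quantile normalization and 0.24 and 0.25 under the filters. In the same terms, over 11 alternatives, Acat2 ranged from 0.65 to 1.07, Lbr from 0.62 to 0.93, Tm7sf2 from 0.79 to 1.12 and Dhcr7 from 0.73 to 1.07, and over 10 alternatives Abcg1 ranged from -1.67 to -1.18, so none of these 5 changed sign. Other than where the construction of an alternative gives it, the cause of these shifts was not tested. Spike-in scaling, like the other scalings by a constant, moves each array as a whole and so leaves all relative values as they were. The deposited table holds the same intensity and leaves them so too. In the normexp fit 15 spots marked for uneven background were left out, 1 of them with a local background of 11380, and the fitted background mean of the bilberry array was -5.73 without the 15 and -344.86 with them. Without replicates, no value here separates a treatment from its culture or its array, which cannot be told apart.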
